A study of Homo sapiens with 4 samples.

Results

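The replication-dependent histone genes supply the core and linker histones that package newly made DNA, and they were followed here in the human embryonic stem cell line H9 after knockdown of UPF1. Members were all rows of the count table whose symbol begins with HIST1H, HIST2H, HIST3H or HIST4H, which gave 57 of 15942 rows. They divided into 4 H1, 14 H2A, 18 H2B, 10 H3 and 11 H4 rows, and 3 rows join 2 symbols that the table does not separate. By current RefSeq annotation 44 rows lie on chromosome 6 (the HIST1 cluster), 12 on chromosome 1 (HIST2 and HIST3) and HIST4H4 on chromosome 12. The 2 control libraries came from cells given an siRNA against luciferase (siLuc), which has no human target, and the 2 siUPF1 libraries from cells given an siRNA against UPF1. All cells were grown on Matrigel in E8-supplemented medium. The treatment text that the libraries share names an siRNA against UPF3A and an actinomycin D time course, and assigns no time to a library. No label ties the libraries of a group to separate cultures. The p-values therefore measure only how far these libraries spread, which may be technical. The 2 control columns have 1 name between them, and the text tells them apart as control a and control b.

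Messenger RNAs of these genes are made in S phase and, unlike other messenger RNAs, end in a short stem-loop in place of a poly(A) tail. The stem-loop is bound by SLBP, which carries the RNA through processing and translation. When DNA synthesis stops, UPF1 joins the SLBP-bound RNA, uridines are added to its end, and the LSM1-7 ring and the exonuclease ERI1 take part in its decay, so that UPF1 is a decay factor here outside nonsense-mediated decay. Some of the genes are also known to give longer, polyadenylated transcripts.

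The stem-loops below are shown because they are the element through which UPF1 reaches these RNAs. They come from the GENCODE 29 transcripts (GRCh38) that carry the RefSeq accessions of the rows, and all 57 rows matched one. The pattern searched has 16 bases: GG, any 2 bases, CTTTT, any base, AG, any 2 bases and CC. Capitals mark this stem-loop, which SLBP binds, and lower case marks up to 5 flanking bases on each side, 5′ to 3′.
HIST1H2AC: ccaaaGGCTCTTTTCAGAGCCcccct
HIST1H2BH: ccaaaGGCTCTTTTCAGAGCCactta
HIST2H2BE: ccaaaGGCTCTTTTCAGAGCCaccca
HIST1H3G: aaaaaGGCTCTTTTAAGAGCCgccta
HIST1H4J: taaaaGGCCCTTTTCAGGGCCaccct
HIST2H4A+HIST2H4B: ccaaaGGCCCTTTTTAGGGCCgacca

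The pattern was found in 28 of 57 rows, 0 of 4 H1, 6 of 14 H2A, 12 of 18 H2B, 3 of 10 H3 and 7 of 11 H4 rows. Outside the histone rows it lay in 0.0458% of 83047 protein-coding transcripts on the sense strand and in 0.0626% on the opposite strand. All 28 could form 6 base pairs in the stem, with G-T counted as a pair, which 2 of them needed. The pattern itself fixes these pairs, apart from those between its any-base positions. All 7 H4 stem-loops began with GGCCC and all 21 others with GGCTC. Of the 29 rows without a match, 27 had a longest model whose length is a multiple of 3, as models of coding length alone have. Longer models can have such lengths too, as HIST1H3E (462 nt, against 411 nt for HIST1H3A) and HIST1H4C (435 nt, against 312 nt for HIST1H4A) did. Where a model stops with the coding sequence, the missing letters say nothing of the RNA itself. In 19 of the 28 rows a model ran at least 100 nt past the stem-loop, and 14 of 57 rows had AATAAA or ATTAAA in the last 50 nt of a model.

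UPF1, the siRNA target, had 219 and 205 CPM (TMM-scaled counts per 1e+06 counts of the library) in the controls and 60.8 and 78.2 CPM in siUPF1 replicates 1 and 2, so that 32.8% remained. The libraries held 8887239 to 11200973 counts, of which 2043 to 2361 fell on the histone rows, 0.0206% to 0.0238%. The 7 pluripotent stem cell markers, POU5F1, NANOG and SOX2 among them, averaged 92.2 to 377 CPM, with DNMT3B, LIN28A and DPPA4 highest. Of the 7 markers 4 fell, where 9.14% of all genes tested fell. Among markers of other cell types, 2 of 4 endoderm genes (AFP and FOXA2), 2 of 5 mesoderm genes (MIXL1 and TBX6) and 3 of 5 trophoblast genes (KRT7, GATA3 and CGA) were analysed, with means of 0.866 to 11.9 CPM. Of the 4 neural ectoderm genes NES averaged 337, DCX 43.0 and PAX6 5.74 CPM. For fibroblasts 3 of 5 genes were analysed (THY1, COL1A1 and COL1A2), with means of 163 to 172 CPM. Summed over each list, the pluripotent markers stood at 1553 and 1450 CPM in the controls and 1349 and 1245 CPM after siUPF1, neural ectoderm at 412 and 398 against 388 and 365 CPM, and fibroblast at 510 and 484 against 512 and 486 CPM. The sums were 10.8 and 12.1 against 15.3 and 11.4 CPM for endoderm, 6.90 and 8.58 against 5.602 and 8.29 CPM for mesoderm, and 15.3 and 13.7 against 18.9 and 19.6 CPM for trophoblast. Members of a list could differ in direction: FOXA2 fell with a log2 fold change of -2.97 (SE 0.37) while AFP rose by 0.88 (SE 0.18). MIXL1 fell while TBX6 rose, and DCX fell with -1.11 (SE 0.10). Of the 3 trophoblast genes, GATA3 rose by 1.19 (SE 0.26) and CGA by 1.39 (SE 0.51), and KRT7 did not pass. Over all genes tested 16.8% rose. FOXA2 passed the count filter only through the control libraries, with 44 and 41 counts there against 6 and 6 after siUPF1. CGA passed it only through the siUPF1 libraries, with 11 and 16 counts there against 3 and 6 in the controls. The part of such cells in the histone values was not tested, and in bulk RNA fewer cells of a type and less RNA per cell cannot be told apart.

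Histone transcripts were scarce in all 4 libraries. The rows averaged 0.226 to 24.8 CPM with a median of 2.33, and none was at 0 in a library. Per kilobase of counted transcript, the tested histone rows had a median level of 6.30 CPM. That median was 51.4 for 11 replication-independent histone genes, most of which give RNAs with poly(A) tails, and 17.1 for all genes tested. The labels do not say whether poly(A) RNA was selected. Counts rested on short transcript models, 353 to 2216 nt long with a median of 465 nt.

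**Figure D1:**
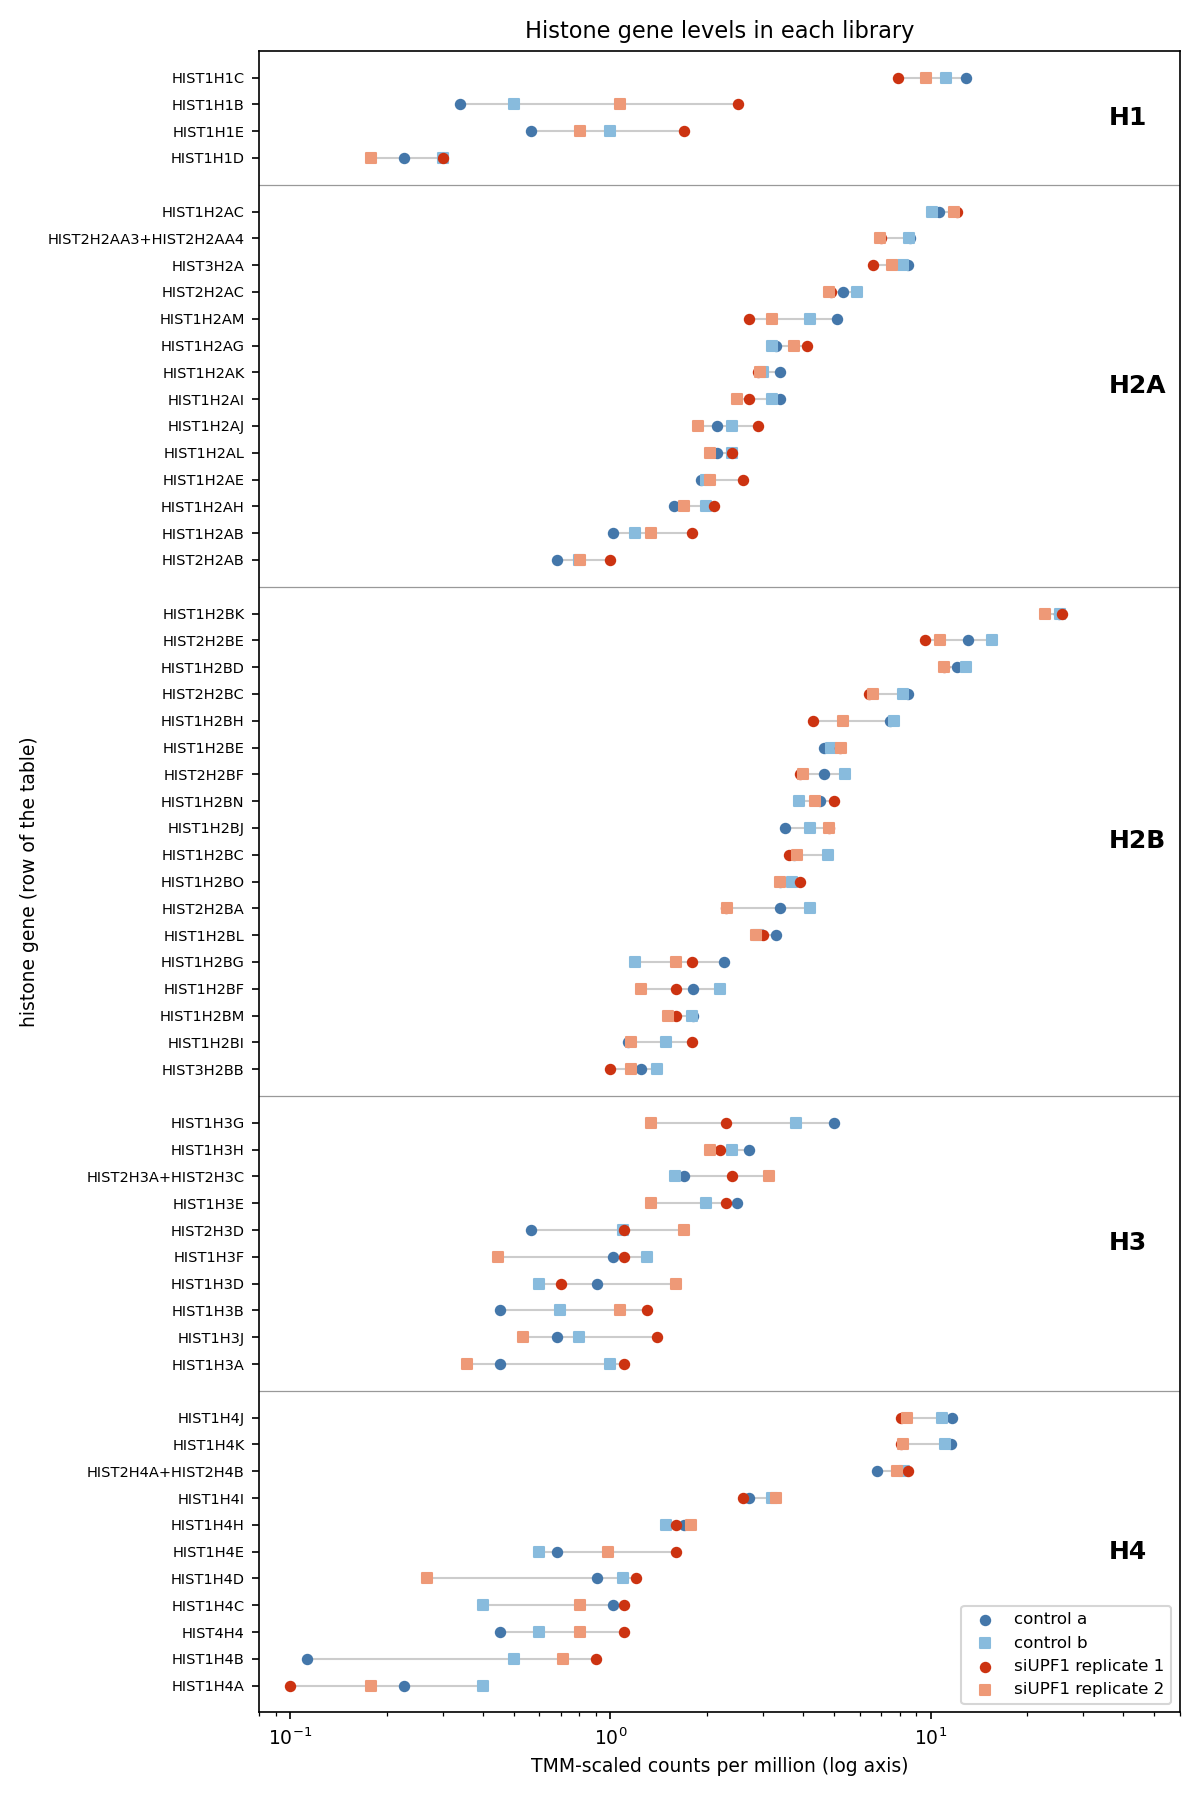
TMM-scaled CPM (log axis) of the 57 histone rows in the 4 libraries, by class and in falling order of the mean. Blue marks are controls and red marks siUPF1 libraries, circles for control a and replicate 1. HIST1H2BK is highest at 22.7 to 25.7 CPM, and most H3 rows lie near 1 CPM.

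After UPF1 knockdown few histone genes passed the test, and those that did mostly fell. Of 57 rows, 49 had enough counts to be tested, and 1 rose and 6 fell. The test was edgeR's quasi-likelihood test over 15557 genes, with Benjamini-Hochberg adjusted p-values held to 0.05. Together this was 14.3% of the tested histone rows, while 25.9% of all genes tested were called, 16.8% higher and 9.14% lower. Among the 5253 genes whose mean did not exceed that of the highest histone row, 17.7% were called higher and 8.72% lower. The single riser, HIST1H1B, was 2.04% of the histone rows and the fallers 12.2%. The median log2 fold change was -0.07 over the histone rows and -0.01 over all genes. With no filter on low counts all 57 rows were tested, again with 1 riser and 6 fallers and a median of -0.07. Fewer histone rows were called whichever library was left out. Over all genes, fewer were also called without control a, control b or siUPF1 replicate 2, and more without siUPF1 replicate 1. DESeq2 called 0 histone rows (1 higher and 3 lower at an unadjusted p under 0.05), where it called 8.19% of all genes higher and 2.99% lower.

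**Figure D2:**
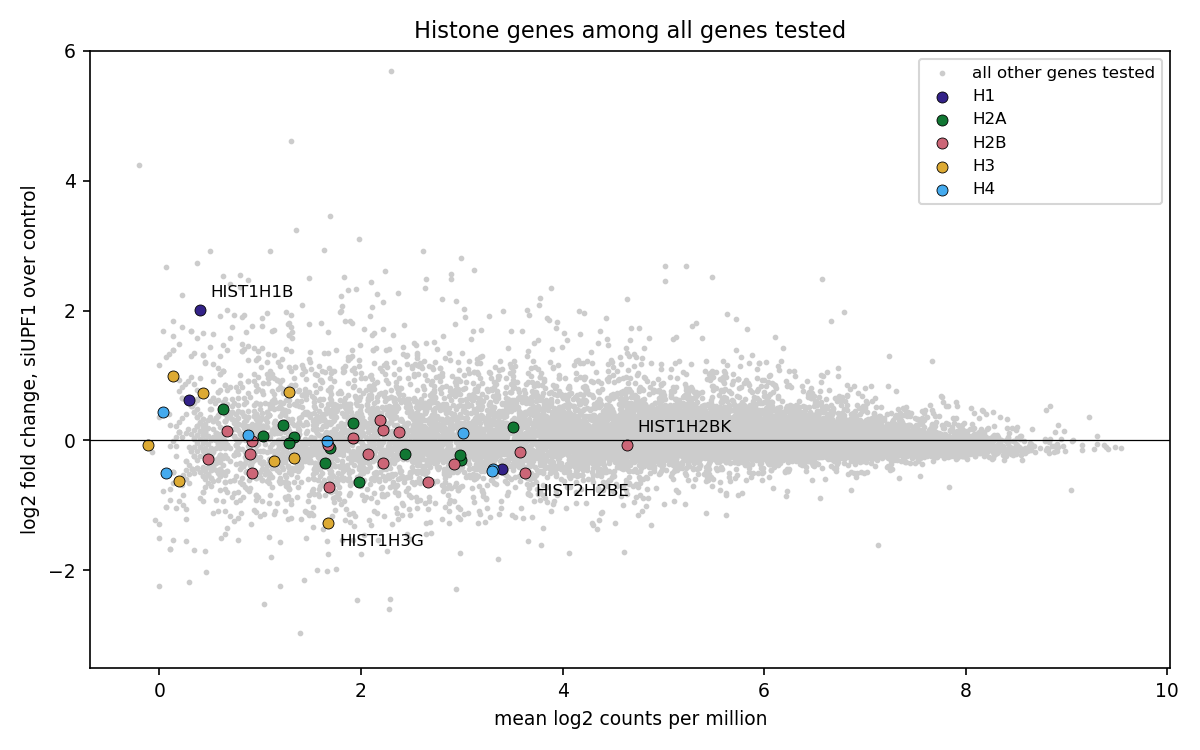
Log2 fold change of siUPF1 over control against mean log2 CPM for 15557 genes, with the 49 tested histone rows coloured by class. HIST1H1B stands at 2.01 and HIST1H3G at -1.27, and the most abundant row, HIST1H2BK, lies near 0.

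Of the 4 linker histone rows, 1 rose, 1 fell, 1 did not pass and 1 was not tested. Over all genes tested, 16.8% were called higher and 9.14% lower. H1 proteins bind the DNA between nucleosomes and compact the fibre. HIST1H1B, which encodes H1.5, had 3 and 5 counts in the controls and 25 and 12 counts in siUPF1 replicates 1 and 2. It was low in both controls and higher in both siUPF1 libraries, in replicate 1 more than in replicate 2. Its level was 0.419 ± 0.113 CPM in siLuc and 1.79 ± 1.01 CPM in siUPF1 cells (SD, n = 2 each), and it rose with a log2 fold change of 2.01 (SE 0.49) and an adjusted p of 0.000377 by edgeR. HIST1H1B passed the count filter only through the siUPF1 libraries. Without siUPF1 replicate 1 its log2 fold change was 1.31 with an adjusted p of 0.141 (edgeR), and DESeq2 gave an adjusted p of 0.117.

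HIST1H1C, which encodes H1.2 and was the most abundant linker histone gene, had 12.9 and 11.2 CPM in the controls and 7.90 and 9.71 CPM after siUPF1. The groups did not overlap, with siUPF1 replicate 1 lowest. HIST1H1C fell by 0.44 in log2 CPM (SE 0.18), with an edgeR adjusted p of 0.0492, just inside the threshold, and its adjusted p (edgeR) was 0.414 without control a, 0.097 without control b and 0.218 without siUPF1 replicate 1; over 11 alternatives it lay between 0.0151 and 0.414. HIST1H1E had 0.566 and 0.998 CPM in the controls and 1.70 and 0.802 CPM after siUPF1, so its groups overlapped (log2 fold change 0.62, SE 0.46), and without siUPF1 replicate 1 it stood at 0.01. HIST1H1D, with 10 counts over the 4 libraries, was not tested.

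None of the 13 tested H2A rows passed the test, where 25.9% of all genes tested did. The H2A log2 fold changes ran from -0.64 to 0.48 with a median of -0.04. H2A and H2B pair as dimers on the outside of the nucleosome core. At an unadjusted p under 0.05 a single H2A row, HIST1H2AM, was lower, with 5.09 and 4.19 CPM in the controls and 2.70 and 3.21 CPM after siUPF1 (log2 fold change -0.64, SE 0.26, adjusted p = 0.0552 by edgeR). In GENCODE the HIST1H2AM model overlaps a model of another gene of the table, HIST1H3J, on the same strand. The HIST1H3J model matched to its own row, 411 nt long, overlaps no HIST1H2AM model. The counted lengths were 485 nt for HIST1H2AM and 477 nt for HIST1H3J, and whether their reads mixed was not tested.

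HIST1H2AC, the H2A row with the most counts, had 10.6 and 10.1 CPM in the controls and 12.1 and 11.9 CPM after siUPF1, higher in both siUPF1 libraries by a log2 fold change of 0.21 (SE 0.17) that did not pass. The joint row of HIST2H2AA3 and HIST2H2AA4 had 8.60 and 8.58 against 7.003 and 6.95 CPM, and HIST3H2A had 8.49 and 8.18 against 6.60 and 7.57 CPM. These rows were lower in both siUPF1 libraries, at -0.30 (SE 0.20) and -0.23 (SE 0.20), without passing. HIST1H2AI and HIST1H2AJ share 62.3% and 83.7% of their 50-base stretches with another histone row, mainly with each other, and their values are uncertain.

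The H2B class held 3 of the 6 fallers among 18 tested rows, 16.7% where 9.14% of all genes tested were called lower. Its median log2 fold change was -0.19, with a range from -0.72 to 0.31. HIST2H2BE had 13.1 and 15.6 CPM in the controls and 9.61 and 10.7 CPM in the siUPF1 libraries. All its siUPF1 values lay below its control values. It fell by 0.50 in log2 CPM (SE 0.17), with an edgeR adjusted p of 0.0133. Its counted model is the longest of the histone rows, 2216 nt, and reaches 1729 nt past the stem-loop in the GENCODE transcript.

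HIST1H2BH had 7.47 and 7.68 CPM in the controls and 4.30 and 5.35 CPM after siUPF1, again with no overlap. It fell by 0.64 in log2 CPM (SE 0.22), with an edgeR adjusted p of 0.0154. HIST2H2BA, counted on a noncoding accession, had 3.39 and 4.19 against 2.30 and 2.32 CPM and fell by 0.72 (SE 0.29, adjusted p = 0.0456, edgeR). Without control b the adjusted p (edgeR) was 0.285 for HIST2H2BE, 0.127 for HIST1H2BH and 0.359 for HIST2H2BA, and without control a it was 0.0969 for HIST1H2BH and 0.101 for HIST2H2BA. Leaving out siUPF1 replicate 1 gave 0.0501, 0.0946 and 0.0965 in the same order, and leaving out replicate 2 gave HIST2H2BA 0.119.

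The most abundant histone row of all, HIST1H2BK, did not pass. It had 25.1 and 25.4 CPM in the controls and 25.7 and 22.7 CPM after siUPF1, with overlapping groups and a log2 fold change of -0.07 (SE 0.12, adjusted p = 0.735, edgeR). HIST1H2BD had 12.1 and 12.9 against 11.01 and 11.05 CPM, lower in both siUPF1 libraries without passing (log2 fold change -0.18, SE 0.17).

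Among the 7 rows that passed, HIST1H3G, an H3 gene, had the largest fall. H3 and H4 form the tetramer at the centre of the nucleosome. HIST1H3G had 44 and 38 counts in the controls and 23 and 15 in siUPF1 replicates 1 and 2, that is 4.98 and 3.79 CPM against 2.30 and 1.34 CPM. Both siUPF1 libraries lay well below both controls, and 41.5% of the control mean remained. HIST1H3G fell by 1.27 in log2 CPM (SE 0.29), with an edgeR adjusted p of 0.000143. It was called with each library left out in turn, and DESeq2 gave an adjusted p of 0.0713.

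No other H3 row passed, and the class median was -0.16. The joint row of HIST2H3A and HIST2H3C had 1.70 and 1.596 CPM in the controls and 2.40 and 3.12 CPM after siUPF1 (log2 fold change 0.75, SE 0.33, adjusted p = 0.0736, edgeR). HIST1H3B had 4 and 7 counts in the controls and 13 and 12 after siUPF1 (205.9% of the control mean, adjusted p = 0.124 by edgeR), and like HIST1H1B it passed the filter only through the siUPF1 libraries. Both were higher in all siUPF1 libraries without passing. In GENCODE models, up to 1656 nt long, the HIST2H3A and HIST2H3C row overlaps HIST2H4A and HIST2H4B on the opposite strand. Its counted length was 505 nt, and the counting is not stated to use strand. HIST1H3H, with 2.72 and 2.39 against 2.20 and 2.05 CPM, was lower in both siUPF1 libraries and did not pass (log2 fold change -0.26, SE 0.31).

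Among H4 rows HIST1H4K fell and its near-copy HIST1H4J missed the threshold. HIST1H4K had 102 and 111 counts in the controls and 81 and 92 after siUPF1, and HIST1H4J had 103 and 109 against 81 and 95. The counts of the pair are nearly the same in every library, and every 50-base stretch of the HIST1H4K model (100%) occurs in another histone row, mainly HIST1H4J, so they cannot be taken as separate measurements. HIST1H4K fell by 0.47 in log2 CPM (SE 0.18) and HIST1H4J stood at -0.44 (SE 0.18), with edgeR adjusted p-values of 0.0392 and 0.0558. Leaving out any library ended the HIST1H4K call, with an adjusted p (edgeR) of 0.251 without control a, 0.155 without control b, 0.0618 without siUPF1 replicate 1 and 0.0687 without siUPF1 replicate 2. The joint row of HIST2H4A and HIST2H4B did not pass, at 6.79 and 8.28 CPM in the controls and 8.50 and 7.84 CPM after siUPF1, with overlapping groups. Its log2 fold change was 0.11 (SE 0.20), and -0.022 without control a. The median over 7 tested H4 rows was 0.00, from -0.50 to 0.44.

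**Figure D3:**
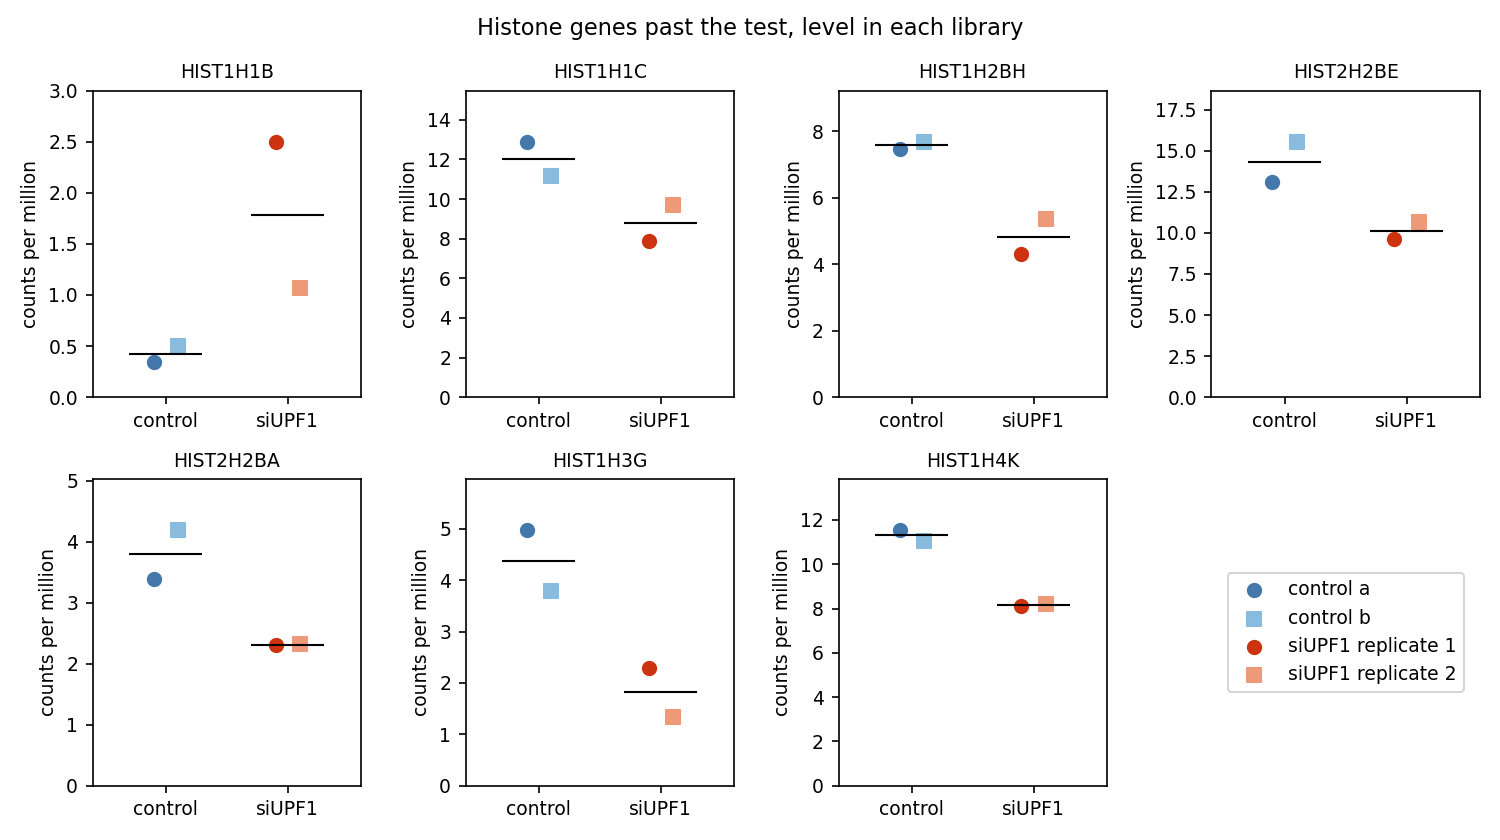
CPM in each library for the 7 histone rows that passed the test, each panel on its own axis from 0, with bars at the group means. HIST1H1B is the only one higher after siUPF1, with replicate 1 at 2.501 and replicate 2 at 1.07 CPM, and in the other 6 panels both siUPF1 marks lie below both control marks.

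Summed over all 57 rows, histone counts came to 231 and 235 CPM in the controls and to 216 and 206 CPM in siUPF1 replicates 1 and 2. Both siUPF1 sums lay below both control sums, and 90.3% of the control mean remained. By class, 89.5% remained for H1, 95.1% for H2A, 87.6% for H2B, 94.3% for H3 and 89.4% for H4. The H2B sum was 106 and 112 CPM in the controls and 96.6 and 93.9 CPM after siUPF1. The H3 sums overlapped, at 15.95 and 15.3 against 15.9 and 13.5 CPM. A single row set some of these sums. Without HIST1H1C the H1 log2 ratio went from -0.16 to 1.16, and without HIST1H3G the H3 ratio went from -0.08 to 0.20. The H4 sum holds both near-copies, HIST1H4J (means of 11.26 CPM in the controls and 8.284 after siUPF1) and HIST1H4K (11.31 and 8.15). The H4 sum itself averaged 38.15 and 34.12 CPM, and it was not taken without the pair. No p is given for a sum over rows.

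**Figure D4:**
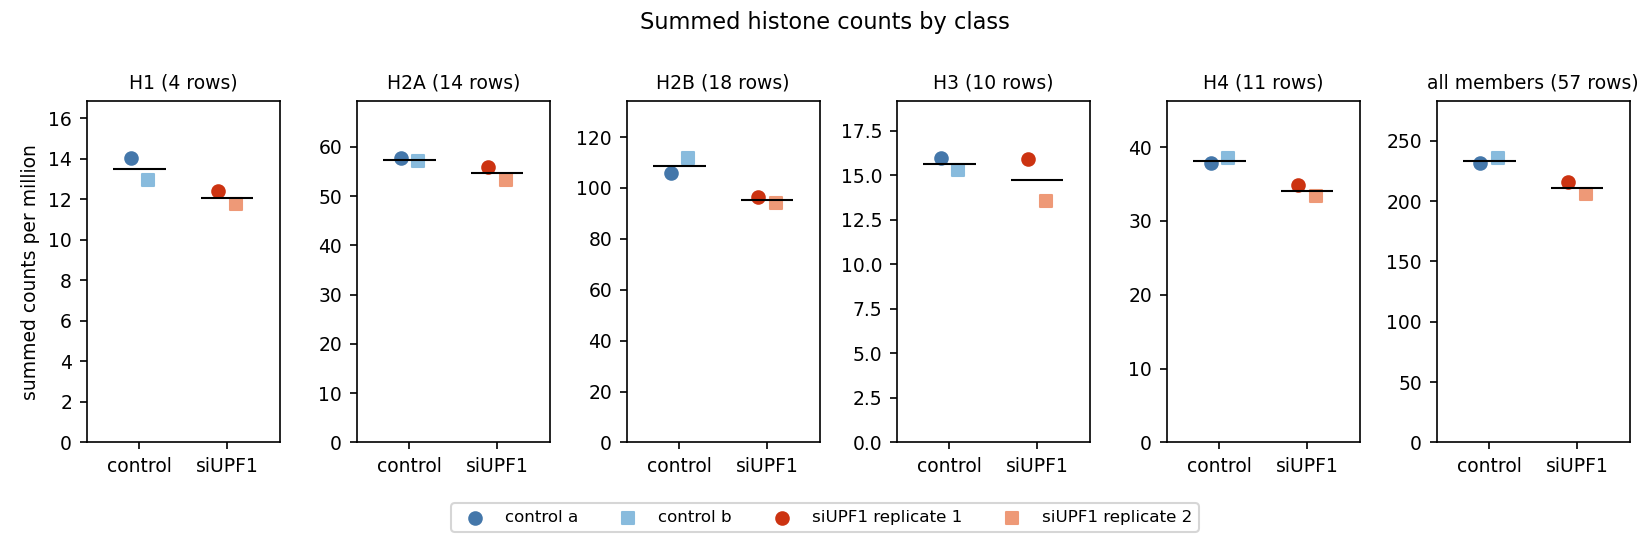
Summed TMM-scaled CPM of each histone class and of all 57 rows, by library, on axes from 0 with bars at the group means. The siUPF1 sums are below the control sums in H1, H2A, H2B, H4 and in total (231 and 235 against 216 and 206 CPM), and they overlap in H3.

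The histone rows were also described above and below a mean of 2.5 CPM, a division chosen after the values were seen and not tested. Over the 49 tested rows the groups did not overlap for 10 with siUPF1 above and 20 with siUPF1 below, 32.3% and 31.1% being the shares over all genes tested. Of 27 rows at or above 2.5 CPM, 20 had a negative log2 fold change, and the median was -0.21. The 14599 genes tested at or above 2.5 CPM, which reach 744.8 CPM, had a median of -0.01, and 7542 of them were negative. The 5253 genes whose mean did not exceed that of the highest histone row had a median of 0.05. Of the 27 histone rows 16 were lower and 4 higher in both siUPF1 libraries, as were 4623 and 4726 of the 14599 genes. The 30 rows under 2.5 CPM, 22 of them tested, had a median of 0.06, where 958 tested genes at that level had 0.04. In 18 of the 30 scarce rows siUPF1 replicate 1 was the highest library. Their sum was 35.0 and 37.2 CPM in the controls, 46.3 CPM in siUPF1 replicate 1 and 36.3 CPM in replicate 2. Thus the scarce rows were high in siUPF1 replicate 1, whereas replicate 2 lay within the control range. The 8 rows with too few counts to test, none over 39 counts in all, were HIST1H1D, HIST2H2AB, HIST1H3D, HIST1H3J, HIST1H4A, HIST1H4B, HIST1H4E and HIST4H4, of which 4 were higher and 1 lower in both siUPF1 libraries.

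RMRP and RPPH1, RNAs that carry no poly(A) tail, were also highest in siUPF1 replicate 1. RMRP, the RNA of the RNase MRP enzyme, had 0.792 and 1.596 CPM in the controls and 6.40 and 2.41 CPM in siUPF1 replicates 1 and 2, and rose by 1.82 on the log2 scale (SE 0.32). RPPH1, the RNA of RNase P, had 1.36 and 1.80 against 5.70 and 2.58 CPM and rose by 1.35 (SE 0.31). Both were higher in both siUPF1 libraries, but without replicate 1 their adjusted p (edgeR quasi-likelihood test) was 0.0762 and 0.186. With the read-density trend removed it was 0.0528 and 0.0687, and DESeq2 gave 0.0211 for RMRP and 0.0832 for RPPH1. SCARNA2 was not tested, at 3 and 6 counts in the controls and 13 and 1 after siUPF1. The 4 such RNAs analysed, of 20 listed, summed to 2.60 and 4.09 CPM in the controls and to 13.7 and 5.08 CPM after siUPF1. Their part in the value of HIST1H1B and the other scarce rows was not tested.

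The calls were also counted by transcript model, where 16.8% higher and 9.14% lower are the shares over all genes tested. Of 16 tested coding rows whose GENCODE model runs at least 100 nt past the stem-loop, 3 fell (HIST2H2BE, HIST1H2BH and HIST1H3G) and 13 did not pass, with a median of -0.22. Of 8 tested rows whose model ends sooner, 0 passed edgeR's test (1 lower at an unadjusted p under 0.05), with a median of -0.13. The 23 tested coding rows without a stem-loop in their model held 1 riser (HIST1H1B) and 2 fallers (HIST1H1C and HIST1H4K), with a median of -0.04. The 2 noncoding rows held 1 faller (HIST2H2BA), with a median of -0.54. The difference between these groups was not tested. The counts do not show which RNA form was read, since the counted length of HIST1H3G was 466 nt and that of HIST1H2BH 424 nt, while their GENCODE models are 2411 and 2060 nt long.

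The replication-independent histone genes, most of which are expressed through the cell cycle, mostly did not pass. Of 11 tested, 1 fell (9.09%, where 9.14% of all genes tested were called lower) and 10 did not pass. The median was -0.12, and all 11 had a negative log2 fold change. H2AFJ, an H2A variant gene, had 48.4 and 48.6 CPM in the controls and 41.7 and 39.1 CPM after siUPF1 and fell by 0.26 on the log2 scale (SE 0.09). Its adjusted p was 0.202 in DESeq2 and, in edgeR, 0.16 without control a, 0.15 without control b and 0.0885 without siUPF1 replicate 2. H2AFY, which encodes macroH2A1, stood at -0.17 (SE 0.07) and H1F0, a linker variant of resting cells, at -0.14 (SE 0.08), without passing.

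Most genes for the machinery of histone RNA did not pass, as was so for all genes tested, of which 16.8% were called higher and 9.14% lower. Of 22 genes of histone 3′ end processing, 2 rose (9.09%), 2 fell (9.09%) and 18 did not pass, with a median of -0.09. ZNF473, a zinc finger protein of the U7 particle that cuts histone precursors, had 47.9 and 51.9 CPM in the controls and 75.5 and 73.9 CPM after siUPF1 and rose by 0.58 (SE 0.08). CASP8AP2, which encodes the histone locus body protein FLASH, rose by 0.33 (SE 0.07), but stood at 0.10 without control b, with an adjusted p of 0.564 (edgeR), and did not pass in DESeq2 (0.451) or with the read-density trend removed (0.133). SRRT, which works with the cap-binding complex, fell by 0.22 (SE 0.07). Its adjusted p was 0.0698 in DESeq2 and 0.354 without control a (edgeR), and with the read-density trend removed its log2 fold change was -0.13, with an edgeR adjusted p of 0.054. SLBP, named for its role after its value was seen, had 72.2 and 67.7 against 65.4 and 61.3 CPM, below the controls in both libraries without passing (log2 fold change -0.14, SE 0.08).

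Of 28 genes of histone RNA translation and decay, 5 rose, 2 fell and 21 did not pass, with a median of -0.01. The shares of 17.9% higher and 7.14% lower were near the 16.8% and 9.14% over all genes tested. SMG1, the kinase that phosphorylates UPF1, had 527 and 515 CPM in the controls and 677 and 663 CPM after siUPF1 and rose by 0.36 (SE 0.07). CTIF, a cap-binding partner in translation, rose by 0.40 (SE 0.09; edgeR adjusted p of 0.0521 without control a), and SMG6, an endonuclease of nonsense-mediated decay, rose by 0.31 (SE 0.07). ERI1, the exonuclease that trims histone RNA ends, named for its role after its value was seen, had 82.6 and 87.2 against 101 and 92.5 CPM and rose by 0.18 (SE 0.07, adjusted p = 0.0492, edgeR). XRN1 rose while TUT1 and PAPD5, both nucleotidyltransferase genes, fell, by values between -0.31 and 0.28 on the log2 scale.

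DNA replication genes, which are expressed with the histone genes in S phase, included fallers and no riser. Of 35 tested, 0 rose, 8 fell and 27 did not pass edgeR's test (0 higher and 13 lower at an unadjusted p under 0.05), with a median of -0.13. The fallers were 22.9% of the list, where 16.8% of all genes tested were called higher and 9.14% lower. GINS1, of the replicative helicase, had 128 and 126 CPM in the controls and 107 and 105 CPM after siUPF1 and fell by 0.25 (SE 0.07). MCM10, which helps that helicase start, fell by 0.23 (SE 0.07). Without control a and without control b the edgeR adjusted p was 0.099 and 0.0518 for GINS1 and 0.135 and 0.0916 for MCM10, and DESeq2 gave MCM10 0.0685. Summed, the list stood at 4229 and 4086 CPM in the controls and 3909 and 3753 CPM after siUPF1, and its part in the histone values was not tested. Of 13 genes that drive histone transcription, 2 rose, CASP8AP2 and the cyclin gene CCNE2 (0.41, SE 0.12), and 3 fell, among them E2F3 (-0.22, SE 0.07). Risers were 15.4% and fallers 23.1% of this list, beside the same 16.8% and 9.14% over all genes tested. CCNE2 had an adjusted p of 0.0973 in DESeq2 and 0.143 without control b (edgeR), and E2F3 had 0.0581 in DESeq2 and 0.1 and 0.161 without control a and without control b (edgeR). NPAT, the coactivator of histone genes, named for its role after its value was seen, stood at 0.18 (SE 0.07, adjusted p = 0.0537, edgeR) with overlapping groups.

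**Figure D5:**
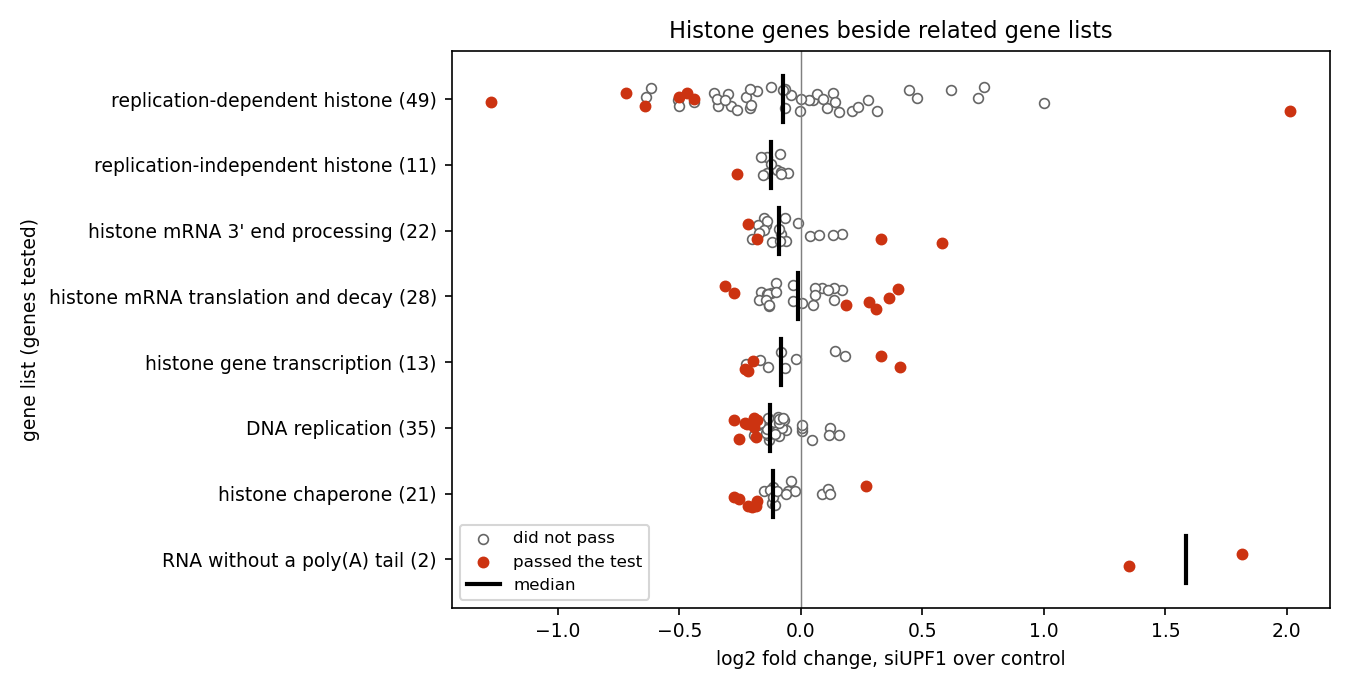
Log2 fold change of siUPF1 over control for the tested genes of each list, with genes past the test filled, others open, and bars at the medians; UPF1 is on no list. The 49 replication-dependent histone rows spread from -1.27 to 2.01 around -0.07, and the 11 replication-independent histone genes all lie below 0.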

How the data were processed

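RNA was extracted with Trizol from H9 cells for 2 siLuc and 2 siUPF1 libraries made with Illumina protocols, per the labels' protocols. Raw read counts and RPKM values per RefSeq gene were deposited by the authors in one table. STAR and DESeq2 on hg19 are named in the submitters' processing notes, without roles. Strand use and treatment of multimapping reads are not given in the sources used here, and histone paralogs share sequence, so single rows are uncertain. From the siUPF1 RPKM columns only each row's counted length was derived, and 2 control RPKM columns were not used because both carry the same name.

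Counts were fitted with edgeR 4.0.16 (R 4.3.3, glmQLFit, two-sided) with TMM and filterByExpr, which kept 15557 of 15942 genes, and Benjamini-Hochberg adjustment at 0.05. SE was the log2 fold change divided by the square root of F. The test was checked on simulated data. Alternatives were RLE, library size alone, DESeq2 1.42.0, limma-voom 3.58.1, other filters and thresholds, each library left out, and a loess trend (span 0.3) on reads per base removed. Control libraries differed beyond sampling noise (chi-square per degree of freedom 1.69), as did siUPF1 libraries (2.83), over all genes. Over the histone rows alone these values were 0.548 and 1.03.

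Members and gene lists were chosen with earlier results of these data known. Named genes were called members, the 3 most abundant members of each class, the 3 smallest p in each list, the 3 most abundant cell type markers of each list, and UPF1; others are marked. HIST1H2AM, HIST1H3B, HIST1H2AI, HIST1H2AJ, XRN1, TUT1, PAPD5, SCARNA2 and the untested rows were named after their values were seen. One of the listed genes picked by this naming rule is not reported here.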

Additional observations from a re-analysis of the deposited data

How the results depend on the processing

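The numbers of histone rows that passed rested on few counts per row. Over the 4 libraries all 57 rows had 9 to 989 counts, and the 7 that passed had 45 to 488. The median SE of the tested rows was 0.286 on the log2 scale. The 1 riser and 6 fallers became 0 and 0 in DESeq2, 1 and 3 in limma-voom, and 0 and 3 of 14 rows, with a median of -0.26, with at least 5 CPM in 2 libraries, a filter that leaves out HIST1H1B, HIST1H3G and HIST2H2BA. After removal of the loess trend on read density there were 0 risers and 8 fallers, with a median of -0.14, and 6 of the 7 called rows were still called. Over all genes tested, the main fit called 2613 higher and 1422 lower. These numbers were 1274 and 465 in DESeq2, 2499 and 1369 in limma-voom, 2430 and 1318 with the 5 CPM filter, and 2386 and 1640 with the trend removed. Among the histone rows, an adjusted p of 0.1 gave 2 risers and 8 fallers, and a fold of at least 1.5 gave 1 and 3. With each library left out in turn, risers ranged from 0 to 1, fallers from 1 to 4, and the median from -0.16 to 0.035. The spread of a group left with 1 library is then taken from the other group. Summed without the row with the most counts, the log2 ratio was 1.16 for H1, -0.14 for H2A, 0.20 for H3 and -0.058 for H4. For H4 that row was HIST1H4J, and its near-copy HIST1H4K stayed in the sum. Single log2 fold changes were followed through the alternatives only for part of the named genes, not for every histone row. Among those followed, 3 turned in sign with a library left out. HIST2H4A+HIST2H4B ranged from -0.022 (without control a) to 0.26, ATRX from -0.011 (without control b) to 0.59, and HIST1H2BK from -0.15 to 0.024 (without siUPF1 replicate 2). Where the value or its call moved, the cause was not tested. No paired analysis was possible because the 2 control count columns share 1 name and so give no replicate number of their own.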

Other observations

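Histone chaperone genes, whose products carry histones from the cytoplasm to DNA, mostly did not pass. Of 21 tested, 1 rose (4.76%), 6 fell (28.6%) and 14 did not pass, with a median log2 fold change of -0.11. Over all genes tested 16.8% were called higher and 9.14% lower, with a median of -0.01. RBBP4, a subunit of the CAF-1 chaperone complex and other chromatin complexes, had 163 and 167 CPM in the controls and 137 and 135 CPM after siUPF1 and fell by 0.28 (SE 0.07). NASP, the chaperone of the soluble H3 and H4 pool, fell by 0.25 (SE 0.07), and stood at -0.13 with the read-density trend removed. The edgeR adjusted p was 0.0569 for RBBP4 without control b, and 0.109 and 0.0593 for NASP without control a and without siUPF1 replicate 2. ATRX, which deposits H3.3 at repeats, had 276 and 183 CPM in the controls and 281 and 271 CPM after siUPF1. It was called as a riser although its groups overlapped, and without control b its log2 fold change was -0.011, with an adjusted p of 0.961 (edgeR).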
